A study of Mus musculus with 8 samples.

Results

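The core circadian clock genes were examined in the cochlea of mice with and without miR-29a, a microRNA of the miR-29 family. The genes were chosen by symbol as components of the transcriptional clock, and all 10 (Per1, Per2, Per3, Cry1, Arntl, Clock, Npas2, Dbp, Nr1d1 and Nr1d2) were found among the 21895 genes of the table. RNA-seq was available for 8 libraries of whole cochlea, 4 from wild-type mice (WT1 to WT4) and 4 from miR-29a-/- mice (KO1 to KO4). Both groups were on the C57BL/6 background, and the knockout strain lacks miR-29a in all cells, so a difference cannot be assigned to a cell type of the cochlea. The series record gives an age of 21 days, whereas the methods give an older age. Mice were kept in a light/dark cycle, but the hour at which cochleae were collected is not given in the sources used here, and whether the libraries are separate animals is not stated. The p-values below therefore measure only the spread between these libraries, which may in part be technical. In whole tissue, fewer cells of a type and less RNA per cell cannot be told apart.

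The mammalian clock is a transcriptional feedback loop that runs in most tissues, the cochlea included. CLOCK or its paralog NPAS2 pairs with BMAL1, the product of Arntl, and activates Per, Cry, Nr1d and Dbp genes through E-boxes, and PER and CRY proteins then repress that pair. REV-ERBα (Nr1d1) and REV-ERBβ (Nr1d2) repress Arntl, Npas2 and Cry1 through response elements bound also by ROR proteins, while DBP activates genes with D-boxes such as the Per genes. In a tissue collected around the clock, Nr1d1 and Dbp usually peak first, then the Per genes, then Cry1, and last Arntl and Npas2, whereas Clock varies little.

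The elements through which this loop runs were searched for in RefSeq promoter windows (GRCm38.p6), each covering 250 bases before to 50 after an annotated start site. For 9 of the 10 genes, all but Per2, 13 windows were found. On both strands the search used the E-box CACGTG, the E-prime box CACGTT, the D-box written TTATGTAA or TTATGCAA, the cAMP response element TGACGTCA and the core of the ROR element TAGGTCA, so that an E-prime box on the other strand reads AACGTG. The E-box was held by 7.15% of all 32851 promoter windows, the E-prime box by 4.68%, the D-box by 1.66%, the cAMP response element by 1.79% and the ROR core by 2.61%. Among the clock genes, 2 held an E-box, 2 an E-prime box, 2 a D-box and 1 the ROR core in any of their windows. These counts are by gene and the shares above by window, so they cannot be compared directly. The following stretches, written 5′ to 3′ on the gene's strand with the element in capitals, are examples. Another Per3 D-box and the Cry1 E-prime box were also found and are not shown.
Per1 E-box, chr11:69098771-69098800 (+): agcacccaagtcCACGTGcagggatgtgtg
Per1 D-box, chr11:69098914-69098943 (+): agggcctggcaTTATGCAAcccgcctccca
Per3 D-box, chr4:151044805-151044834 (-): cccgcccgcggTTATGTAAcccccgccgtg
Cry1 E-box, chr10:85185097-85185126 (-): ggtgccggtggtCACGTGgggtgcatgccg
Nr1d1 E-prime box, chr11:98775388-98775417 (-): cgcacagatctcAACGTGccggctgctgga
Arntl ROR core, chr7:113207529-113207558 (+): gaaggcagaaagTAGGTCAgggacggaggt
The Per1 E-box lay at -166 and its D-box at -24 from the start site, and the ROR core of Arntl lay at 30 bases after it. A match describes letters in the window and no binding was measured.

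The deleted microRNA was also set against the clock transcripts. The mature sequence of miR-29a-3p (RefSeq, GRCm38.p6, chr6:31062673-31062694, minus strand) is shown with its seed, bases 2 to 8, in capitals, beside the stretches of the Per3 and Clock 3′-UTRs (GENCODE M21, GRCm38) that hold the complement of that seed, TGGTGCT, in capitals. The coordinates are those of the matched bases, on the minus strand.
miR-29a-3p: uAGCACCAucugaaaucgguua
Per3, first match, chr4:151005348-151005354: tctaggttttgtacagcaTGGTGCTtctct
Per3, middle match, chr4:151004817-151004823: gtctgtcctctcactgtcTGGTGCTctggt
Per3, last match, chr4:151004100-151004106: ccaggcttgatttgaaaaTGGTGCTgtagt
Clock, first match, chr5:76211330-76211336: ctccatagtccagtaaagTGGTGCTtgaac
Clock, last match, chr5:76210356-76210362: gattatgagtgatttcaaTGGTGCTatatt
In the longest annotated 3′-UTR, Per3 held 3 matches in 2224 bases and Clock held 2 in 6831 bases, and the other 8 clock genes held 0. The match was present in 15.5% of 14824 tested genes with a 3′-UTR, whose median length was 1181 bases. miR-29b-3p and miR-29c-3p share this seed. The level of miR-29a itself was not analysed here.

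The values are FPKM, fragment numbers divided by transcript length and by the mapped fragments of the library, so levels can be compared between genes. Column totals ran from 249221 to 288695. The library WT1 stood apart, with 17.6% of its total in its 10 highest genes against 8.50% to 10.9% in the other 7 libraries, and on the first principal component (50.9% of the variance) WT1 lay at 91.0 and WT3 at -82.0, with the others between -35.1 and 37.0. Median-ratio scaling divided WT1 by 0.772 and the other libraries by 0.934 to 1.09, so it raised WT1 relative to them. All 16 cochlear marker genes were detected in every library, with sums of 1634 to 2528 FPKM in WT and 1746 to 2214 in KO. Genes of marrow neutrophils summed to 75.6 FPKM in WT3, 709 in WT2, 982 in WT4 and 10639 in WT1, and to 1825, 2583, 3714 and 5491 in KO4, KO2, KO1 and KO3. KO4 correlated more highly with WT4 (0.963) and WT2 (0.960) than with the other KO libraries (0.924 to 0.946).

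Arntl and Npas2 of the activating arm and the repressor Cry1 were higher in KO cochlea at an unadjusted threshold, and no clock gene was lower at that threshold. Of the 10 genes, 3 passed an unadjusted p of 0.05, the study's threshold, namely Arntl, Npas2 and Cry1, each higher in KO. Over all 14990 tested genes 691 were higher (4.61%) and 76 lower (0.507%), with a median log2 fold change of 0.10, against a median of -0.14 for the clock genes. Of the clock genes 5 of 10 lay above 0, and of all tested genes 9962 of 14990. After Benjamini-Hochberg adjustment over all tested genes, limma called 0 of the 10 clock genes and 0 of the 14990, the smallest adjusted p being 0.558. In Arntl alone the FPKM values of the 4 KO and 4 WT libraries did not overlap, as they did not for 3.50% of all tested genes.

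Arntl (ENSMUSG00000055116, chr7:113207465-113314126 on GRCm38), which encodes BMAL1, the obligate partner of CLOCK and NPAS2, measured 11.2, 12.9, 5.40 and 9.91 FPKM in WT1 to WT4 and 14.5, 14.3, 15.6 and 13.2 FPKM in KO1 to KO4. In FPKM every KO library lay above every WT library, the lowest value was that of WT3, and the 4 KO libraries lay close together. The separation was lost under median-ratio and quantile scaling, where WT1 lay above KO2 and KO4. After median-ratio scaling the log2 values were 3.87 in WT1, 3.73 in KO2 and 3.67 in KO4. The mean was 9.86 ± 3.22 FPKM in WT (SD, n = 4) and 14.4 ± 0.98 in KO (SD, n = 4), and Arntl rose by 0.61 on the log2 scale (SE 0.25, 95% interval 0.033 to 1.19, limma adjusted p = 0.947). The call was lost without WT4 or without any 1 of the KO libraries, where the difference ran from 0.57 to 0.65 with larger errors, and after median-ratio scaling of the libraries (0.51, limma adjusted p = 0.894). It was also lost under quantile scaling (0.49), with replicate number as a block (0.61), in replicates 1 to 3 (0.68) and without WT1 and WT3 (0.35). The size of the difference rested in part on WT3, since without it Arntl was still called but differed by 0.35 (limma adjusted p = 0.952).

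Npas2 (ENSMUSG00000026077, chr1:39193731-39363236), the paralog that can take the place of CLOCK, measured 3.42, 4.31, 2.39 and 5.43 FPKM in WT1 to WT4 and 7.06, 5.56, 7.07 and 5.23 in KO1 to KO4. WT3 was again the lowest, and the groups overlapped only through WT4, which lay above KO4. Npas2 rose by 0.72 on the log2 scale (SE 0.26, 95% interval 0.12 to 1.31, limma adjusted p = 0.947), from a mean of 3.89 FPKM ± 1.29 to 6.23 ± 0.97 (SD, n = 4 each). Its call was lost without KO1 (0.65, limma adjusted p = 0.944), without KO3 (0.65, limma adjusted p = 0.9996) and with WT1 and WT3 both left out (0.35, limma adjusted p = 0.434). It was also lost with replicate number as a block (0.72, limma adjusted p = 0.767).

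Clock (ENSMUSG00000029238, chr5:76209868-76304792), the histone acetyltransferase of the activating pair, measured 13.8, 22.5, 20.4 and 17.7 FPKM in WT1 to WT4 and 20.8, 17.9, 15.4 and 21.6 in KO1 to KO4. The groups overlapped throughout and the lowest value was that of WT1. The difference was 0.035 on the log2 scale (95% interval -0.39 to 0.46, limma adjusted p = 0.990) and took the other sign under median-ratio scaling (-0.065). The mean of the gene was 18.6 FPKM in WT and 18.9 in KO, and the transcript with 2 seed matches for miR-29a was not measured apart. The part of miR-29a in the level of Clock was not tested.

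**Figure D1:**
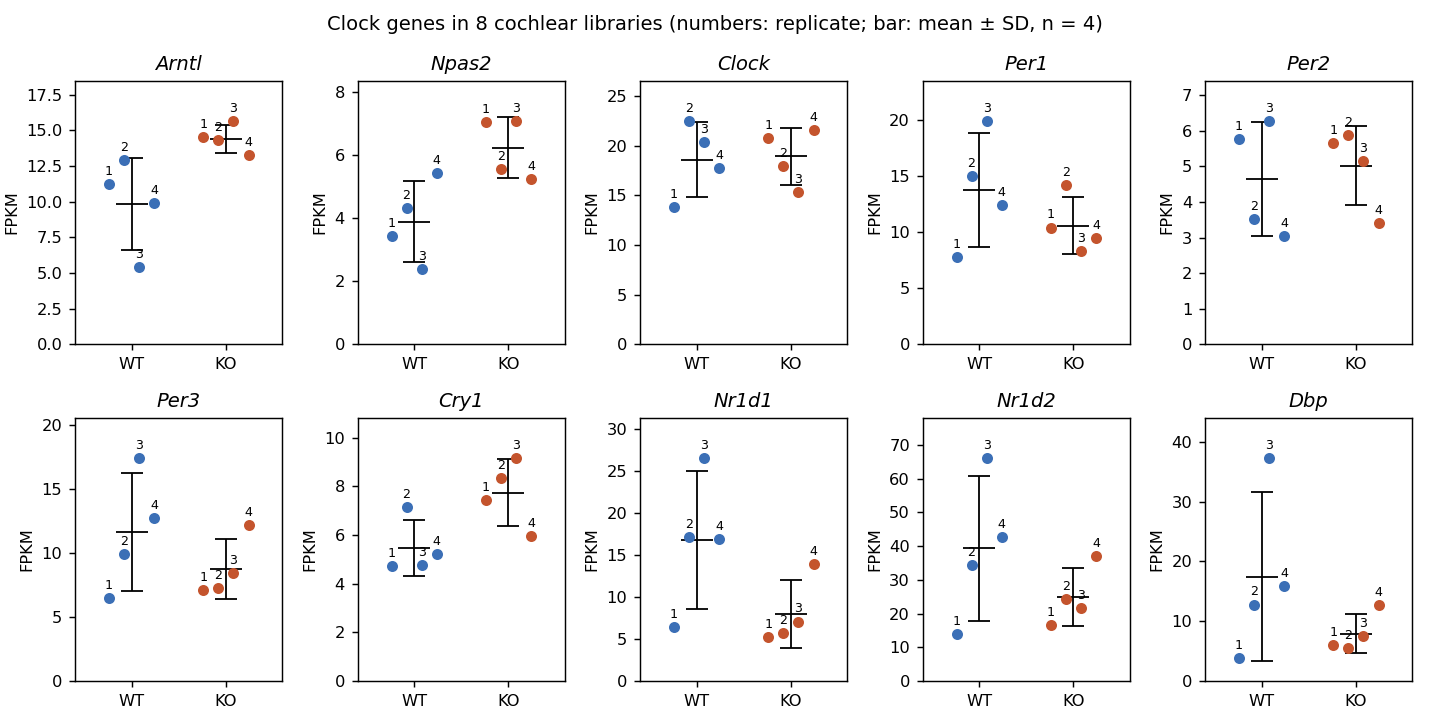
FPKM of each clock gene (y axis, linear, one panel per gene) in WT libraries (blue) and KO libraries (orange). Points are libraries with their replicate number, and bars give mean ± SD (n = 4). KO points of Arntl lie above all WT points, and WT3 is the highest library for Dbp, Nr1d1, Nr1d2, Per1, Per2 and Per3.

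Among the repressors, Cry1 (ENSMUSG00000020038, chr10:85131700-85185064), which encodes the cryptochrome that shuts off CLOCK and BMAL1, measured 4.74, 7.14, 4.76 and 5.21 FPKM in WT1 to WT4 and 7.45, 8.35, 9.17 and 5.97 in KO1 to KO4. The only overlap was that WT2 lay above KO4. Cry1 rose by 0.50 on the log2 scale (SE 0.20, 95% interval 0.044 to 0.95, limma adjusted p = 0.947), from 5.46 ± 1.14 to 7.73 ± 1.37 FPKM (SD, n = 4 each). The call was lost in 6 of the 8 fits that left out 1 library, the exceptions being WT2 and KO4, and in those 6 the difference ran from 0.41 to 0.51. After median-ratio scaling it was 0.40 and was not called (limma adjusted p = 0.894). Nor was Cry1 called under quantile scaling (0.36, limma adjusted p = 0.794) or without WT1 and WT3 (0.32, limma adjusted p = 0.511). All 3 called genes are known REV-ERB targets, but REV-ERB protein and binding were not measured, and the part of REV-ERB in these differences was not tested.

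Per1 (ENSMUSG00000020893, chr11:69095217-69109960), a period gene that also responds to light and hormones, measured 7.73, 15.0, 19.9 and 12.4 FPKM in WT1 to WT4 and 10.4, 14.2, 8.29 and 9.47 in KO1 to KO4. WT3 was the highest and WT1 the lowest of all 8 libraries. The difference was -0.32 on the log2 scale (95% interval -0.99 to 0.34, limma adjusted p = 0.960), and was -0.57 without WT1 and -0.12 without WT3. Per3 (ENSMUSG00000028957, chr4:151003652-151044665), a period gene that the clock can run without, measured 6.49, 9.93, 17.5 and 12.8 FPKM in WT and 7.11, 7.30, 8.40 and 12.2 in KO in the same order. Here too WT3 was the highest and WT1 the lowest, and the difference was -0.35 (95% interval -1.06 to 0.35, limma adjusted p = 0.957). Without WT1 the Per3 difference was -0.60 and without WT3 it was -0.13.

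Per2 (ENSMUSG00000055866, chr1:91415982-91459324), the period gene whose product limits the repressor complex, followed another order. It measured 5.78, 3.53, 6.27 and 3.05 FPKM in WT1 to WT4 and 5.65, 5.87, 5.16 and 3.42 in KO1 to KO4. WT2, WT4 and KO4 lay between 3.05 and 3.53 FPKM and the other 5 libraries between 5.16 and 6.27, so that the split crossed the genotypes. The difference between genotypes was 0.14 (95% interval -0.51 to 0.80, limma adjusted p = 0.983) and was -0.035 without WT4 and 0.30 without WT3.

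In the stabilising loop, Nr1d1 (ENSMUSG00000020889, chr11:98767932-98775333), which encodes the haem-binding repressor REV-ERBα, measured 6.42, 17.1, 26.6 and 16.9 FPKM in WT1 to WT4 and 5.22, 5.67, 7.07 and 13.9 in KO1 to KO4. WT1 lay among KO1 to KO3, and KO4 lay near WT2 and WT4. The mean was 16.7 ± 8.23 FPKM in WT and 7.96 ± 4.03 in KO (SD, n = 4 each), with a difference of -1.01 on the log2 scale (SE 0.46, 95% interval -2.05 to 0.028, limma adjusted p = 0.947), just short of the unadjusted threshold. Nr1d1 passed the unadjusted threshold after median-ratio scaling (-1.11), without WT1 (-1.41) and without KO4 (-1.31), with limma adjusted p = 0.894, adjusted p = 0.145 and adjusted p = 0.798.

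Nr1d2 (ENSMUSG00000021775, chr14:18204054-18239127), which encodes REV-ERBβ, had the highest mean level of the clock genes. It measured 13.9, 34.5, 66.2 and 42.6 FPKM in WT1 to WT4 and 16.6, 24.3, 21.6 and 37.1 in KO1 to KO4. WT3 was the highest and WT1 the lowest of all libraries, and the difference was -0.51 (95% interval -1.54 to 0.52, limma adjusted p = 0.958). Without WT1 the Nr1d2 difference was -0.94 and without WT3 it was -0.20. The output gene Dbp (ENSMUSG00000059824, chr7:45705088-45710203), a transcription factor that carries the rhythm to D-box genes, measured 3.91, 12.8, 37.3 and 15.8 FPKM in WT and 5.94, 5.46, 7.59 and 12.7 in KO. Dbp spanned 9.55-fold among WT libraries and 2.32-fold among KO libraries, and its difference was -0.81 (95% interval -2.19 to 0.58, limma adjusted p = 0.947). Without WT1 the Dbp difference was -1.38 and without WT3 it was -0.31.

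**Figure D2:**
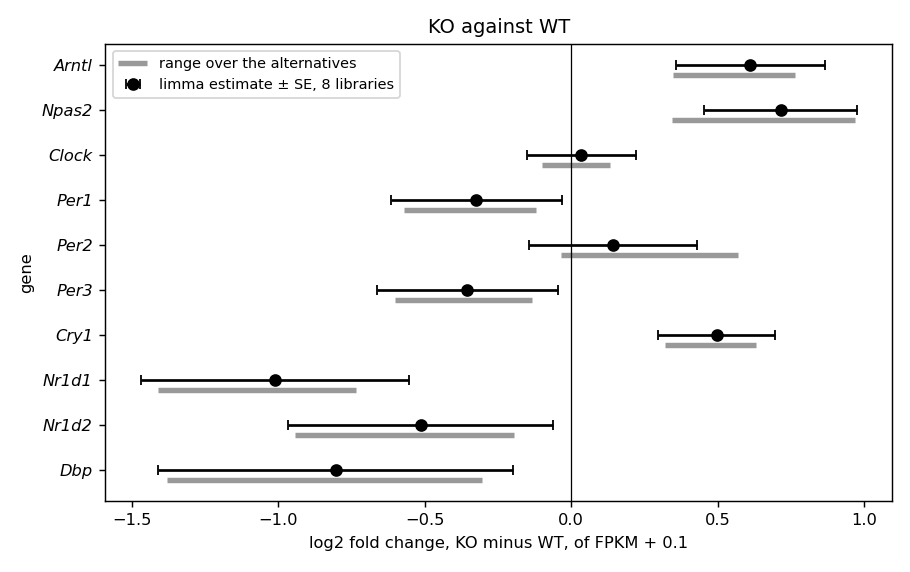
Log2 fold change of each clock gene, KO minus WT, of FPKM + 0.1 (x axis). Points and black bars are limma estimates ± SE over 8 libraries, and grey bars give the lowest to highest estimate over the alternatives. Arntl, Npas2 and Cry1 stay above 0 and Nr1d1, Nr1d2, Dbp, Per1 and Per3 stay below 0, while the grey bars of Clock and Per2 cross 0.

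Which clock genes passed depended on the libraries, above all on WT1, which in FPKM had the lowest Dbp, Nr1d2, Per1, Per3 and Clock. That rank depended on the scaling, since after median-ratio scaling WT1 was not the lowest library for any of these genes. Its log2 values were then 2.37 for Dbp (KO2 2.35), 4.18 for Nr1d2 (KO1 4.16), 3.34 for Per1 (KO3 2.96), 3.09 for Per3 (KO2 2.77) and 4.17 for Clock (KO3 3.85). Without WT1, 7 of the 10 passed an unadjusted p of 0.05 in limma, with Arntl and Npas2 higher and Per1, Per3, Dbp, Nr1d1 and Nr1d2 lower in KO. In that fit 12.1% of all tested genes were higher and 7.40% lower, and 0 of the 10 clock genes passed after adjustment. With WT1 and WT3 both left out, a choice made after seeing the data, 4 of the 10 passed, namely Per2 higher (0.57) and Dbp (-0.92), Nr1d1 (-1.20) and Nr1d2 (-0.68) lower in KO, beside 9.17% of all genes higher and 6.97% lower, and Arntl, Npas2 and Cry1 did not pass. Without KO1 or without KO3, 0 of the 10 passed, and without WT4 or KO2 only Npas2 did. After median-ratio scaling, which brought the median of all tested genes from 0.10 to 0.00, Npas2 was higher and Nr1d1 lower, beside 402 higher (2.68%) and 363 lower (2.42%) of all genes.

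Across libraries Per3, Dbp, Nr1d1 and Nr1d2 moved together. As a description over 8 libraries, which share their scaling, log2 values of Dbp and Per3 had r = 0.98, Per3 and Nr1d2 r = 0.97, Dbp and Nr1d2 r = 0.96, Dbp and Nr1d1 r = 0.94, and Arntl and Npas2 r = 0.85. The mean log2 level of Per1, Per2, Per3, Dbp, Nr1d1 and Nr1d2 minus that of Arntl, Npas2 and Clock was taken as a contrast between the arms of the loop, on which a higher value means more of the first 6 genes relative to the other 3. Clock and Per2 did not move with their arms. Clock had r = -0.13 with Arntl and -0.029 with Npas2, but 0.49 to 0.59 with Per1, Per3, Dbp, Nr1d1 and Nr1d2. Per2 had r = 0.043 with Per1 and -0.45 to -0.28 with Per3, Dbp, Nr1d1 and Nr1d2. The contrast was -0.25, 0.22, 1.81 and 0.43 in WT1 to WT4 and -0.72, -0.36, -0.46 and 0.034 in KO1 to KO4. WT3 lay far above all others, WT1 lay among the KO libraries, and KO4 lay between WT1 and WT2. The contrast averaged 0.56 ± 0.89 in WT and -0.38 ± 0.31 in KO (SD, n = 4 each), a difference of -0.93 that was -0.51 without WT3 and -0.70 without WT1 and WT3, and it was not tested because the genes were chosen with results known.

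**Figure D3:**
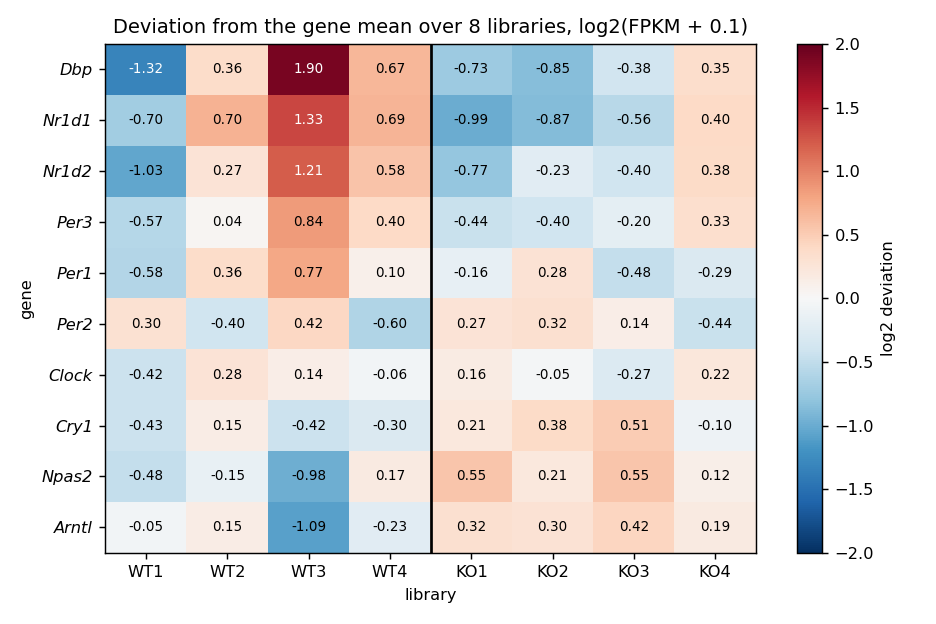
Log2 deviation of each clock gene (rows) in each library (columns) from the mean of that gene over the 8 libraries, with red above and blue below the mean. In WT3 the rows Per1, Per3, Dbp, Nr1d1 and Nr1d2 are above and Arntl and Npas2 below the mean, and KO1 to KO3 show the opposite pattern in Nr1d1 and Dbp.

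The relation of Arntl to the genes it activates was examined over the 8 libraries in 7 correlations. The genes were chosen with results known, so the p-values are descriptive. The permutation moved libraries across the genotypes, so differences between genotypes enter these p-values. Cry1 followed Arntl (r = 0.76, exact permutation p = 0.00682, Benjamini-Hochberg adjusted over the 7 relations 0.0477, and rho = 0.88, exact permutation p = 0.00724, adjusted 0.0507). Without WT3 and WT4, the libraries farthest from the Arntl median, r was 0.93 (exact permutation p = 0.00833, adjusted 0.0583). On deviations from the genotype means r of Cry1 with Arntl was 0.54 (exact permutation p = 0.166, adjusted 0.193). Dbp (r = -0.76, exact permutation p = 0.0312, adjusted 0.0546), Per3 (r = -0.75, p = 0.0231, adjusted 0.0540), Nr1d1 (r = -0.73, p = 0.0152, adjusted 0.0532) and Nr1d2 (r = -0.70, p = 0.0451, adjusted 0.0632) ran against Arntl. Their rho values, in the same order, were -0.55, -0.55, -0.69 and -0.60. On deviations from the genotype means those 4 values of r were -0.71, -0.71, -0.55 and -0.65 (exact permutation p = 0.0629, 0.0454, 0.157 and 0.0947, each adjusted 0.193). Without WT3 and WT4 they became 0.19, 0.094, -0.26 and 0.16. With WT4 alone left out they were -0.75, -0.74, -0.72 and -0.68, and with WT3 alone left out -0.31, -0.39, -0.53 and -0.32, so the opposition to Arntl rested largely on WT3. Per1 had r = -0.64 (exact permutation p = 0.0787, rho = -0.43) and Per2 r = -0.17 (exact permutation p = 0.784, rho = -0.071). After median-ratio scaling 6 of the 7 relations passed adjustment, all but that of Per2.

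Ratios of clock genes within a library do not depend on the scaling between libraries. Per2 over Nr1d1 was 0.206 in WT2, 0.236 in WT3, 0.180 in WT4 and 0.246 in KO4, against 0.900 in WT1, 1.08 in KO1, 1.04 in KO2 and 0.730 in KO3. The 8 libraries therefore fell into 2 ranges of this ratio, each holding both genotypes. Npas2 over Nr1d1 was 0.533, 0.252, 0.0898 and 0.321 in WT1 to WT4 and 1.35, 0.981, 1.001 and 0.377 in KO1 to KO4, with KO4 between WT4 and WT1. Dbp over Arntl was 6.91 in WT3 and ran from 0.348 to 1.60 in the other libraries. The part of the collection hour in these orders was not tested.

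**Figure D4:**
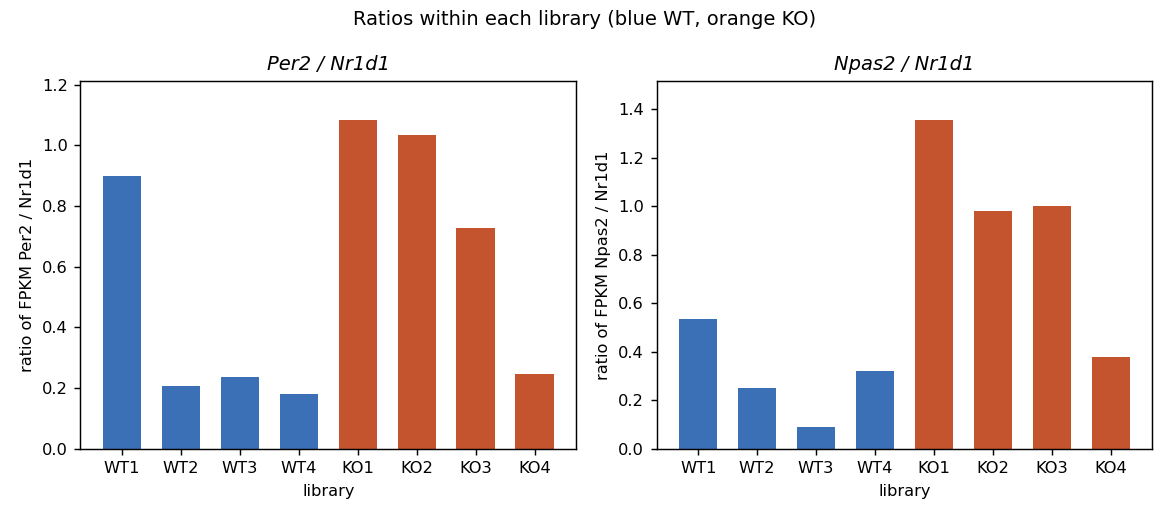
Ratio of FPKM within each library (y axis, linear from 0) for Per2 over Nr1d1 on the left and Npas2 over Nr1d1 on the right, by library (blue WT, orange KO). WT2, WT3, WT4 and KO4 are the 4 libraries with Per2 over Nr1d1 between 0.180 and 0.246.

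The spread within genotype differed among the clock genes. The pooled within-genotype SD of log2 FPKM was 1.01 for Dbp, at percentile 97.1 among 1499 tested genes of like mean level whose median SD was 0.32, and it was 0.75 for both Nr1d1 (percentile 93.9) and Nr1d2 (percentile 94.3). Clock (0.27, percentile 44.9) and Cry1 (0.27, percentile 37.0) lay below the middle of such genes. Per1 (percentile 76.9), Per3 (75.3), Arntl (67.4), Per2 (60.8) and Npas2 (52.2) lay between. Among KO libraries the SD was 0.10 for Arntl and 0.63 for Nr1d1.

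Marker genes of marrow differed widely between the libraries and followed some of the clock genes. The summed neutrophil genes (10 of 10 in the table, none at 0 in any library) were lowest in WT3, where Nr1d1 and Dbp were highest and Arntl and Npas2 lowest, and they were highest in WT1, where Dbp in FPKM was lowest. In FPKM, WT1 had the lowest Cry1 of all libraries (4.74) and had Npas2 (3.42) and Arntl (11.2) below every KO library. After median-ratio scaling this held only for Npas2. On that log2 scale Cry1 of WT1 (2.64) lay above WT3 (2.24), WT4 (2.33) and KO4 (2.53), and Arntl of WT1 (3.87) above KO2 (3.73) and KO4 (3.67). In the lists compared between genotypes, 0 of the 10 neutrophil genes passed an unadjusted p of 0.05 in limma (0 adjusted), although all 10 lay above 0 with a median log2 difference of 2.31. Of the genes of other cell types, 2 of 7 erythroid genes, 2 of 7 bone genes, 1 of 9 skeletal muscle genes and 1 of 6 adipocyte genes passed, all higher in KO, and 0 of 4 pituitary genes and, lower in KO, 1 of 16 cochlear genes did. Of all 14990 tested genes 4.61% passed as higher and 0.507% as lower, and 9962 lay above 0. Summed levels were 449 to 7459 FPKM in WT and 4898 to 12086 in KO for erythroid genes, and 102 to 649 and 659 to 859 for bone genes. They were 0.891 to 13.2 and 3.32 to 387 for 9 skeletal muscle genes without Pvalb, a gene also of neurons that made up most of that list's sum in all WT libraries, 1.96 to 32.1 and 8.30 to 59.5 for adipocytes, and 1.75 to 1699 and 62.8 to 755 for pituitary. The part of these cells in the clock gene differences was not tested.

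**Figure D5:**
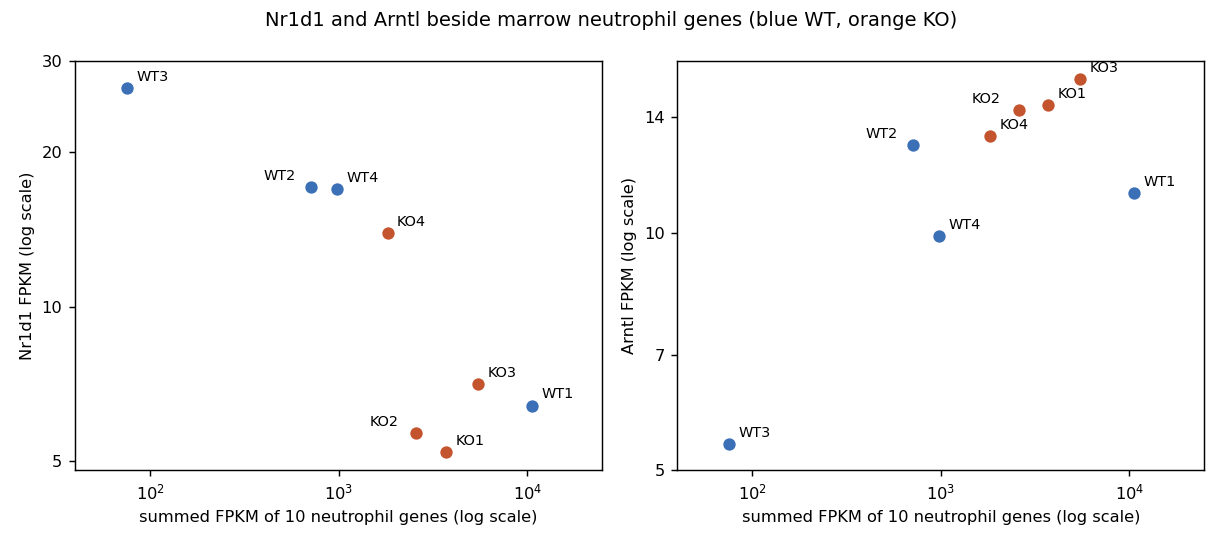
Nr1d1 (left) and Arntl (right) in FPKM (y axis, log scale) against the summed FPKM of 10 neutrophil genes (x axis, log scale) in each library (blue WT, orange KO). WT3 has the lowest neutrophil sum, the highest Nr1d1 and the lowest Arntl, and WT1 has the highest neutrophil sum.

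Genes of the wider clock pathway did not pass the same threshold. Of 23 further clock and clock-output genes, such as Cry2, the Ror genes, the casein kinases and the F-box proteins that degrade PER and CRY, limma called 0 at an unadjusted p of 0.05 (0 adjusted), with 13 above 0 and a median log2 difference of 0.083. The largest differences were those of Ciart, an E-box driven repressor (-0.56), Timeless (0.55) and Nfil3, the repressor that competes with DBP at D-boxes (0.54), each with limma adjusted p = 0.947. Timeless was the only 1 of the 23 whose groups did not overlap, as was the case for 3.50% of all tested genes. Of all 14990 tested genes 4.61% passed as higher and 0.507% as lower, and 9962 lay above 0. Ciart measured 5.34 FPKM in WT3 and between 1.45 and 2.07 in the other WT libraries, following Dbp and Nr1d1. Without WT1, Nfil3 was higher (0.86, limma adjusted p = 0.179) and Cry2 (-0.36, adjusted p = 0.169) and Bhlhe41 (-0.35, adjusted p = 0.248) were lower in KO at the unadjusted threshold. In that fit 12.1% of all tested genes were higher and 7.40% lower.

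Hormone-responsive genes were examined because glucocorticoids set peripheral clocks. Of 11 glucocorticoid target genes, Tsc22d3 (GILZ, an anti-inflammatory target) rose by 0.98 on the log2 scale (SE 0.33, limma adjusted p = 0.947), and the other 10 did not pass. Tsc22d3 measured 20.7, 29.7, 24.5 and 25.9 FPKM in WT1 to WT4 and 53.2, 88.3, 48.5 and 25.9 in KO1 to KO4, so KO4 lay among the WT libraries. Of all 14990 tested genes 4.61% passed as higher and 0.507% as lower. Of the 11 genes 8 lay above 0, with a median of 0.33, beside 9962 of all 14990 tested genes with a median of 0.10.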

How the data were processed

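RNA was taken from cochleae of WT and miR-29a-/- mice, 4 libraries each, grouped by the labelled genotype. The authors made strand-specific, ribosomal RNA-depleted libraries, mapped the read pairs by Hisat2, and deposited a table of FPKM; the counting tool and annotation are not given in the sources used here. Submitters' processing notes list mm9, whereas the coordinates of all 10 genes matched GENCODE M21 (GRCm38). FPKM hold no counts, so depth and counting error are unknown, and count tests were not run. No per-sample column was left unused (0), and symbols turned into dates (27) were restored.

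Genes with a mean of at least 0.5 FPKM were tested on log2(FPKM + 0.1) with limma 3.58.1 (R 4.3.3), using genotype alone with a mean-variance trend, two-sided, and Benjamini-Hochberg adjustment over all tested genes; fold changes on that scale understate those of low genes. Correlations used exact two-sided permutation of libraries. Scripts were tested on simulated data. The clock genes and the lists were chosen with earlier results of these data known. Named genes were the 10 clock genes, list genes called at an unadjusted p of 0.05, the 3 largest differences in the wider pathway, and the 5 genes most and least correlated with the contrast. Alternatives were another pseudocount (1) and filter (1 FPKM), median-ratio and quantile scaling, replicates 1 to 3, a replicate block and leaving out libraries; leaving out WT1 and WT3 together was chosen after seeing the data.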

Additional observations from a re-analysis of the deposited data

Results flagged for a closer look

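Single libraries that stood apart from the other 3 of their group by Dixon's criterion were sought in 40 groups, of which 7 met it. The groups were the WT and KO values of the 10 clock genes, the contrast, the neutrophil sum and genes picked from longer lists. The picked genes were Ciart, Timeless, Nfil3, Tsc22d3, Hsph1, Cirbp, Cry2 and Tef. Chance flags about 1 in 20 groups, but with picked genes the 7 cannot be read against that rate. No group of the 10 clock genes was flagged. Ciart was 5.34 FPKM in WT3 against 1.45 to 2.07 in the other WT libraries. Timeless was 1.33 FPKM in WT3 against 3.10 to 3.34. Cry2, a repressor like Cry1, was 7.87 FPKM in WT1 against 18.9 to 20.1. Tef, a D-box factor related to Dbp, was 32.2 FPKM in KO1 against 41.8 to 43.2 in the other KO libraries. The heat-shock gene Hsph1 was 26.2 FPKM in KO4 against 49.5 to 52.5, and the cold-induced gene Cirbp was 22.8 FPKM in KO4 against 8.42 to 10.7. The summed neutrophil genes were 10639 FPKM in WT1 against 75.6 to 982 in the other WT libraries.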

How the results depend on the processing

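Leaving out 1 library gave 0 to 7 called clock genes (3 with all 8 libraries), 0 to 3 other clock genes (0) and 347 to 2922 of all genes (767, from 377 without KO2 and 347 without KO3 to 2922 without WT1); without WT1 and WT3 the called clock genes numbered 4 (Per2 higher, and Dbp, Nr1d1 and Nr1d2 lower, with Arntl, Npas2 and Cry1 lost), the other clock genes 3 and all genes 2430. The other clock genes numbered 1 under median-ratio scaling (Nampt), quantile scaling (Nampt), the replicate block (Wee1) and replicates 1 to 3 (Btrc). Replicate numbers did not pair the libraries (correlations of deviations 0.42, -0.24, -0.17 and 0.21), and 1 of 4 KO and 2 of 4 WT libraries correlated best with their own number; with the replicate block 838 genes were called (738 higher, 100 lower), 2 of them clock genes (Cry1 higher, Nr1d1 lower). Median-ratio scaling called 402 genes higher and 363 lower, and quantile scaling 378 and 547. Correlations with Arntl that passed adjustment numbered 1, or 6 under median-ratio and quantile scaling, 0 without the 2 farthest libraries, 0 on genotype deviations and 0 to 6 when 1 library was left out. Without the 2 farthest libraries, r with Arntl reversed for Per1 (0.15), Per2 (0.14), Per3 (0.094), Dbp (0.19) and Nr1d2 (0.16), and for Per2 also under median-ratio scaling (0.052) and without WT3 (0.52, with -0.35 to 0.52 when 1 library was left out). The log2 difference of Clock reversed under median-ratio (-0.065) and quantile scaling (-0.066), in replicates 1 to 3 (-0.047) and without WT1 and WT3 (-0.091), running from -0.10 to 0.13 when 1 library was left out, and that of Per2 ran from -0.035 to 0.31. The causes were not tested. Depth is unknown, and adjusted p-values called 0 clock genes by limma in all of these fits.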

Other observations

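Genes outside the clock whose log2 values followed the contrast between the arms of the loop most closely over 8 libraries, out of 14015 ranked, were Cyp2j6 (r = 0.99), Enpep (r = 0.98), Pou3f4 (r = 0.97), Sema3e (r = 0.97) and Rasal2 (r = 0.96). Pou3f4, a transcription factor of the cochlear mesenchyme, measured 20.5, 24.0, 30.4 and 23.1 FPKM in WT1 to WT4 and 18.3, 21.8, 19.6 and 22.8 in KO1 to KO4. At the other end stood Apol11b (r = -0.995), H2afy, Incenp, Rsad2 and Hist1h2ag (each r = -0.99). Hist1h2ag, a replication-dependent histone gene, measured 25.4, 11.7, 0.641 and 10.6 FPKM in WT and 67.7, 57.2, 71.0 and 18.8 in KO. In all, 42 genes had r above 0.9 and 626 had r below -0.9. These are descriptions over libraries that share their scaling and their marker gene differences.

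Of 8 temperature-responsive genes limma called 0 at an unadjusted p of 0.05 (0 adjusted), with 8 above 0 and a median log2 difference of 0.35. Of all 14990 tested genes 4.61% passed as higher and 0.507% as lower, and 9962 lay above 0, with a median of 0.10. The pair named here was chosen after its values were seen. Hsph1, a heat-shock gene, measured 47.4, 23.4, 45.3 and 30.6 FPKM in WT1 to WT4 and 52.5, 49.5, 51.1 and 26.2 in KO1 to KO4, so that WT2, WT4 and KO4, the libraries with the lowest Per2, were also those with the lowest Hsph1. Cirbp, a cold-induced RNA-binding protein gene, measured 1.21, 23.2, 15.9 and 22.8 FPKM in WT and 8.42, 9.07, 10.7 and 22.8 in KO, and was highest in the same 3 libraries. Rbm3, the other cold-induced gene of the list, did not follow that split, with 4.79, 26.2, 16.2 and 21.5 FPKM in WT and 20.9, 22.04, 16.9 and 18.9 in KO. Of the other heat-shock genes, Hsp90aa1 and Dnajb1 were lowest in the same 3 libraries, but Hspa1a, Hspa1b and Hspa8 were not. Hspa1a was lowest in WT1 (1.67 FPKM), and Hspa1b of WT1 (4.04) lay below WT4 (4.94) and KO4 (4.43). Hspa8 of WT3 (263) lay below WT4 (277) and KO4 (290).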
